A study of Mus musculus with 4 samples.

Results

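The 10 thermogenic fat genes Ucp1, Ppargc1a, Ppargc1b, Dio2, Prdm16, Cidea, Elovl3, Cox8b, Cox7a1 and Esrrg were taken by gene symbol, and each symbol matched 1 row of the 53715 genes in the count matrices. Single-nucleus RNA sequencing was done on inguinal white fat, the subcutaneous depot of the groin, from C57BL/6N mice aged 6 months. The study set PTRF knockout mice, represented by 2 libraries, against WT mice, represented by 2 libraries, and its title names a distal enhancer of Ptrf as the target. Ptrf is an older name of Cavin1, which encodes a coat protein of the caveolae of fat cells. The labels do not give the sex or housing temperature, the deleted segment, or whether a library pooled several mice, and no thermogenic stimulus such as cold is named.

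Cavin1 ran against the labels. The libraries labelled PTRF knockout 1 and 2 held 730 and 1759 Cavin1 UMIs (unique molecular identifiers, 1 per captured RNA molecule), against 40 and 9 in the libraries labelled WT 1 and 2. Scaled to counts per 1000000 counts of the library (CPM), these are 53.9 and 50.5 CPM in the libraries labelled PTRF knockout and 1.81 and 1.04 CPM in those labelled WT. The names of the deposited count files also give each library the other genotype. Every direction below is therefore a difference between libraries as labelled, and would turn round if the labels were exchanged.

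Heat-producing fat cells, brown in dedicated depots and beige where they arise inside white fat, carry Ucp1, a protein of the inner mitochondrial membrane that lets protons return without making ATP, so that fuel is burned as heat. Adrenergic signalling through cAMP induces Ucp1 in these cells together with the coactivator Ppargc1a and with Dio2, a deiodinase that makes active thyroid hormone inside the cell. Prdm16 is a transcriptional regulator that maintains brown and beige identity, and Esrrg is an orphan nuclear receptor of oxidative genes that works with the Ppargc1 coactivators. Inguinal fat is the mouse depot best known for beige cells, which are rare in animals kept warm.

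The sequences just upstream of the starts of Ucp1, Ppargc1a, Dio2 and Cox8b are shown. The last 3 genes were high in the few nuclei chosen for holding a Ucp1 UMI, as described below. Prdm16 and Esrrg were also higher there, by less, and their windows are not shown. Cidea and Ppargc1b were high there as well, and their windows were not read. The sequences shown are the 250 bases before the RefSeq start on GRCm38.p6, written 5′ to 3′ on the strand of the gene. Capitals mark the letters TGACGTCA (the cAMP response element), its core TGACG and the nuclear receptor core site AGGTCA on either strand. The core TGACG lies within the full element, and both strands were searched.
Ucp1: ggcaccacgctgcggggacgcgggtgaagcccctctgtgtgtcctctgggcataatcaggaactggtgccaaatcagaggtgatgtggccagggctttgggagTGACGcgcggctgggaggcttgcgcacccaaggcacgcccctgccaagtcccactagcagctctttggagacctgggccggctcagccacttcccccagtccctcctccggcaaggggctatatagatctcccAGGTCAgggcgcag
Ppargc1a: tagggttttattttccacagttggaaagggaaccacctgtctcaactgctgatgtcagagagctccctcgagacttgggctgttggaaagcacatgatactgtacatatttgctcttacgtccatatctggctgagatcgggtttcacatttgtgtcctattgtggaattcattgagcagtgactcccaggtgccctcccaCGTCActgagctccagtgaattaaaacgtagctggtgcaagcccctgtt
Dio2: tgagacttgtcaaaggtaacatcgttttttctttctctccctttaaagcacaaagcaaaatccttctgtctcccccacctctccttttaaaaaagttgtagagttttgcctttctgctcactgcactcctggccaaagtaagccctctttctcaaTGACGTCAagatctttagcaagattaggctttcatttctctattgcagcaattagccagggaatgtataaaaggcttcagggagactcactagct
Cox8b: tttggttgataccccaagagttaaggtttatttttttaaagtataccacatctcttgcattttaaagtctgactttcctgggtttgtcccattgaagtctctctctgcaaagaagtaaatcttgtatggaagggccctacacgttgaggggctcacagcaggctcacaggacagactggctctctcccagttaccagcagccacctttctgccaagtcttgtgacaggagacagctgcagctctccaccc
The Ucp1 window is chr8:83290098-83290347 on the plus strand and holds 1 TGACG and 1 AGGTCA. The Ppargc1a window is chr5:51567726-51567975 on the minus strand and holds 1 TGACG, read on the other strand. The Dio2 window, chr12:90739039-90739288 on the minus strand, holds TGACGTCA, which occurs in 1.55% of 32851 such windows of the mouse table. The Cox8b window, chr7:140900447-140900696 on the minus strand, holds none of the 3. The core TGACG occurs in 17.8% and AGGTCA in 14.0% of all windows. A match describes the letters of these windows and is not a measured site. RefSeq windows were read for 7 of the 10 genes, and not for Ppargc1b, Cidea and Elovl3. Those of Prdm16, Esrrg and Cox7a1 hold none of the 3 motifs either, so 3 of the 7 genes have a match.

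In the GENCODE M21 annotation Ppargc1a spans chr5:51454250-51567726, Prdm16 chr4:154316125-154636873, Esrrg chr1:187608791-188214885, Dio2 chr12:90724552-90738438, Ucp1 chr8:83290352-83298452, Elovl3 chr19:46131897-46135694, Cox7a1 chr7:30184144-30186078 and Cox8b chr7:140898945-140900446. Ucp1, Cox7a1 and Cox8b overlap no other annotated gene. Ppargc1a overlaps 4, of which 3 lie on its strand, and Ppargc1b overlaps 2, among them the microRNA gene Mir378a. Prdm16 overlaps 3, Esrrg 4, and Dio2, Cidea and Elovl3 1 each. The sources used here do not say whether strand was used in the counting, so counts of the 7 overlapping genes may include reads of their partners.

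After filtering, 50067 of 51350 nuclei were kept, between 6664 and 15887 per library, with median depths of 844.5 to 1401 UMIs per nucleus. The libraries share between 47 and 143 barcodes in pairs. Clustering without the 10 genes gave 21 clusters and 18 classes, of which 11 held at least 50 nuclei in each library. Classes carry the suffix "-like" because they were named from marker lists. The adipocyte-like class held 812 and 1803 nuclei in the libraries labelled PTRF knockout 1 and 2, against 2427 and 501 in those labelled WT 1 and 2. Cluster 0, of 13025 nuclei, stayed unnamed: its nuclei were shallow (medians of 659 to 749 UMIs), and its leading genes were Gm10800, C230088H06Rik and genes known from neurons such as Csmd3. It made up 42.7% and 21.8% of nuclei in the libraries labelled PTRF knockout, against 11.6% and 39.7% in those labelled WT. At Leiden resolution 2 the largest unnamed cluster held 8915 nuclei, and an added cluster of 4065 was named adipocyte-like. Without the mitochondrial filter these were 10190 and 4040. Cluster 0 may thus hold adipocyte nuclei and is not set out below as another cell type. The overlap of these clusters was not tested.

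The 10 genes were detected to very different degrees. Over all nuclei the files hold 10932 UMIs of Esrrg, 8093 of Ppargc1b, 6195 of Prdm16 and 4680 of Ppargc1a. Of the effector genes they hold 1310 UMIs of Cidea, a protein of the lipid droplet surface, 531 of Dio2 and 305 of Cox8b, a subunit form of cytochrome c oxidase typical of muscle and brown fat. Ucp1 had 269 UMIs, Cox7a1, another muscle and brown fat form of a cytochrome c oxidase subunit, had 229, and Elovl3, an enzyme that lengthens fatty acids and is induced in brown fat by cold, had 131. At least 1 UMI was found in 10.6% of nuclei for Esrrg and in 0.287% for Ucp1. These are numbers of captured molecules and depend on transcript length and priming, so they do not rank the genes by expression.

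Among the 11 classes compared, the regulators Ppargc1a, Ppargc1b and Prdm16 had their highest means in adipocyte-like nuclei. Ppargc1a averaged 154 ± 32.1 CPM there (SD, n = 4 libraries), with a range of 111 to 189 CPM. Cluster 0 followed with 90.7 ± 28.8 CPM, and the third class, B cell-like nuclei, with 34.3 ± 6.82 CPM. The adipocyte-like range of Ppargc1a lay above the ranges of 9 of the 10 other classes and overlapped that of cluster 0. Ppargc1b, a coactivator closely related to Ppargc1a, averaged 242 ± 67.7 CPM in adipocyte-like nuclei and 116 ± 30.5 CPM in cluster 0, again with 9 of 10 ranges below. Prdm16 averaged 191 ± 42.9 CPM in adipocyte-like nuclei, 129 ± 34.7 CPM in cluster 0 and 76.9 ± 26.9 CPM in vascular endothelial-like nuclei. The ranges of Prdm16 in cluster 0 and vascular endothelial-like nuclei overlapped.

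Esrrg had another distribution. It was highest in luminal-like cluster 9, mammary epithelial nuclei led by Prlr and Pgr, the receptors of prolactin and progesterone, at 606 ± 381 CPM. In that cluster it had 603 and 570 CPM in the libraries labelled PTRF knockout 1 and 2, against 1089 and 159 CPM in those labelled WT 1 and 2. The 2 libraries labelled WT thus lay on either side of both libraries labelled PTRF knockout. Adipocyte-like nuclei came sixth of 11 for Esrrg, at 80.0 ± 42.0 CPM, and their range of 34.9 to 136 CPM overlapped those of the classes on either side in the order. A small unnamed cluster of 335 nuclei led by Pcdh15, Csmd1 and Unc5c, too small in some libraries to be compared, had the highest Esrrg of all clusters, 1189 CPM summed over its nuclei with a 95% Poisson interval of 1111 to 1272 CPM.

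The effector genes were at low levels, and most UMIs of Ucp1, Cidea, Dio2 and Cox8b lay in adipocyte-like nuclei and cluster 0. Ucp1 averaged 18.6 ± 26.8 CPM in adipocyte-like nuclei and 8.68 ± 9.58 CPM in cluster 0, and these 2 classes held 98 and 127 of its 269 UMIs. No other class that was compared averaged more than 2.22 CPM, the value of progenitor-like nuclei. Cidea averaged 48.2 ± 50.3 CPM in adipocyte-like nuclei, 30.8 ± 11.5 CPM in cluster 0 and 15.03 ± 10.04 CPM in vascular endothelial-like nuclei. Dio2 averaged 21.0 ± 16.0 CPM in adipocyte-like nuclei and 14.3 ± 6.05 CPM in cluster 0. Cox8b averaged 15.4 ± 13.1 CPM in adipocyte-like nuclei, above the ranges of 6 other classes. The SDs of Ucp1, Cidea, Dio2 and Cox8b in adipocyte-like nuclei are large against their means, and the values of each library are given below. Elovl3 and Cox7a1 had no leading class, and adipocyte-like nuclei and cluster 0 held 18 and 34 of the 131 Elovl3 UMIs and 41 and 76 of the 229 Cox7a1 UMIs. On average Elovl3 had 2.96 CPM in B cell-like nuclei, 2.84 CPM in cluster 0 and 2.41 CPM in adipocyte-like nuclei, and Cox7a1 averaged 6.55 CPM in cluster 0, 5.64 CPM in adipocyte-like nuclei and 4.63 CPM in B cell-like nuclei.

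**Figure D1:**
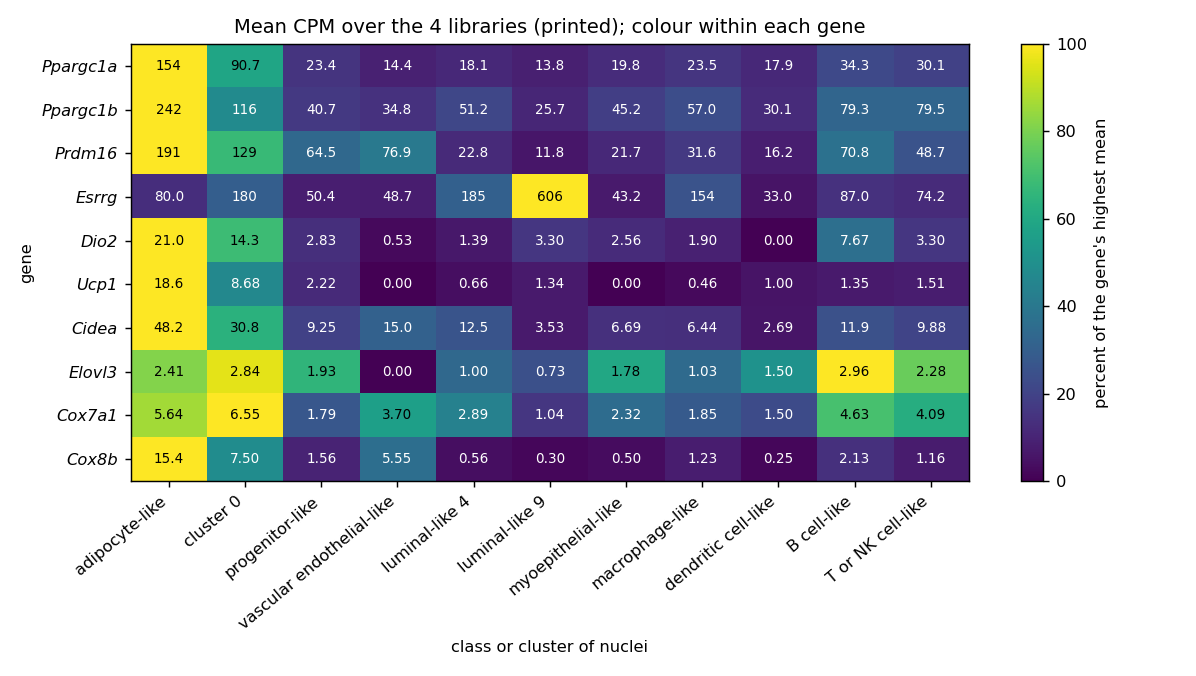
Mean CPM of each thermogenic gene (rows) in 11 classes or clusters of nuclei (columns) over the 4 libraries. Numbers are CPM, and colour is scaled within each gene to its highest class. Ppargc1a, Ppargc1b, Prdm16, Dio2, Ucp1, Cidea and Cox8b are highest in adipocyte-like nuclei with cluster 0 next, while Esrrg is highest in luminal-like cluster 9 at 606 CPM.

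Skeletal muscle also uses several of these genes, and 132 nuclei formed a skeletal muscle-like class. They held Ppargc1b at 273 CPM and Esrrg at 205 CPM, with 95% Poisson intervals of 199 to 367 and 141 to 288 CPM. Cox7a1 had 0 UMIs and Cox8b had 1 UMI in these nuclei, where a count of 0 allows up to 18.6 CPM. The summed level of 10 skeletal muscle markers over all nuclei was 436 and 117 CPM in the libraries labelled PTRF knockout 1 and 2, against 150 and 317 CPM in those labelled WT 1 and 2. In adipocyte-like nuclei the same 10 markers, none of them at 0, summed to 61.5 and 32.9 CPM in the libraries labelled PTRF knockout, against 44.5 and 48.5 CPM in those labelled WT.

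Ucp1 differed between libraries of the same label more than between labels. In adipocyte-like nuclei Ucp1 had 22 and 5 UMIs in the libraries labelled PTRF knockout 1 and 2, against 7 and 64 UMIs in those labelled WT 1 and 2. After normalisation with the trimmed mean of M values (TMM), these were 14.4 and 0.582 CPM in the libraries labelled PTRF knockout, against 1.29 and 58.4 CPM in those labelled WT. Ucp1 was thus high in PTRF knockout 1 and WT 2 and low in PTRF knockout 2 and WT 1. Over all nuclei the same 2 libraries were high: Ucp1 had 8.33 and 0.846 CPM in the libraries labelled PTRF knockout, against 0.758 and 10.5 CPM in those labelled WT. The 2 libraries with high Ucp1 are also the 2 with the larger shares of cluster 0 and with the higher skeletal muscle markers over all nuclei. Their median depths were also the lowest, at 844.5 UMIs per nucleus in PTRF knockout 1 and 933.5 in WT 2. PTRF knockout 2 had 1401 and WT 1 had 1022. Over all genes tested in all nuclei, the difference between PTRF knockout 1 and 2 ran against that between WT 1 and 2 (Pearson r = -0.61). The part of these in the result was not tested.

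Few nuclei held the Ucp1 signal. At least 1 Ucp1 UMI was found in 10 of 812 adipocyte-like nuclei of PTRF knockout 1 and 5 of 1803 of PTRF knockout 2, against 4 of 2427 of WT 1 and 20 of 501 of WT 2. These are 1.23% (95% Clopper-Pearson interval 0.592 to 2.25%) and 0.277% (0.0901 to 0.646%) in the libraries labelled PTRF knockout, against 0.165% (0.0449 to 0.421%) and 3.99% (2.46 to 6.10%) in those labelled WT. The interval of WT 2 lay above all 3 others. Thinned to 500 UMIs per nucleus, the shares were 0.369% and 0% in the libraries labelled PTRF knockout and 0.124% and 1.60% in those labelled WT, so WT 2 stayed highest at equal depth. In cluster 0 the shares were 0.919% and 0.0577% in the libraries labelled PTRF knockout, against 0.111% and 0.680% in those labelled WT, in the same pattern. All other nuclei together gave 0.114% (36 of 31499), and 7 of the 36 held at least 2 Ucp1 UMIs. This share serves as the background below, and whether it comes from free RNA was not tested. By library it was 0.132% and 0.141% in those labelled PTRF knockout, against 0.0442% and 0.227% in those labelled WT. Depth was not matched in the comparison that follows. Set against the other nuclei of the same library, the intervals of both classes in PTRF knockout 1 and of adipocyte-like nuclei in WT 2 lay higher. Those of both classes in PTRF knockout 2 and WT 1, and of cluster 0 in WT 2, overlapped the background. At least 3 UMIs of Ucp1 were found in 15 nuclei of PTRF knockout 1 and 1 nucleus of PTRF knockout 2, against 1 nucleus of WT 1 and 14 nuclei of WT 2, and the highest count in 1 nucleus was 10. Intervals here and below cover counting error only.

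**Figure D2:**
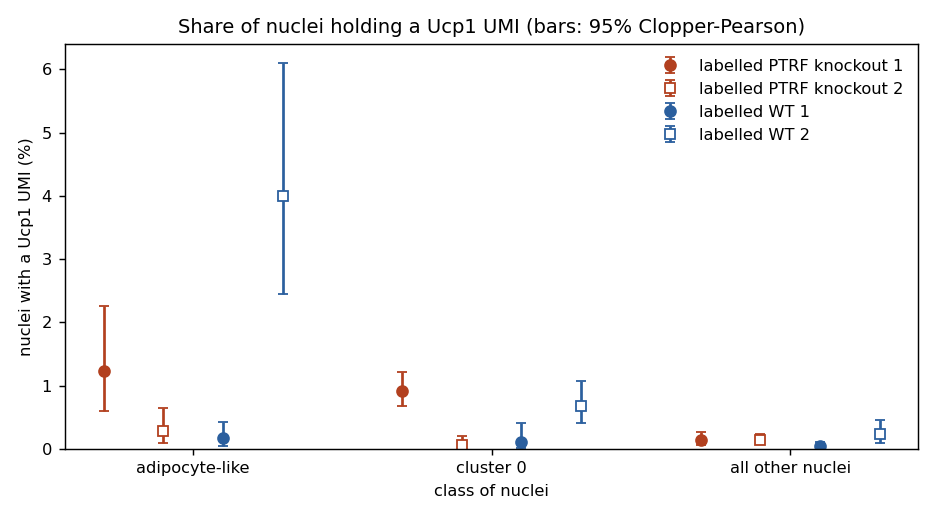
Percentage of nuclei with at least 1 Ucp1 UMI in adipocyte-like nuclei, cluster 0 and all other nuclei. Each point is 1 library and bars are 95% Clopper-Pearson intervals. The libraries labelled PTRF knockout 1 (1.23%) and WT 2 (3.99%) are high in adipocyte-like nuclei, against 0.277% in PTRF knockout 2 and 0.165% in WT 1.

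Nuclei with a Ucp1 UMI carried more of most of the other thermogenic genes. In the adipocyte-like and cluster 0 nuclei of PTRF knockout 1, 57 nuclei held a Ucp1 UMI and 5868 did not. In those of WT 2, 38 did and 3109 did not. In PTRF knockout 1 the Poisson intervals of nuclei with and without Ucp1 were apart for 8 of the 9 other genes, and in WT 2 likewise for 8 of 9, in each case with the nuclei holding Ucp1 higher. Of the 9 genes, 7 were higher in both libraries (Ppargc1a, Ppargc1b, Prdm16, Esrrg, Dio2, Cidea and Cox8b). Over 27187 genes by the same rule, 0.842% were higher in both libraries and 0.405% lower in both. These shares, like those below, take in every gene with at least 10 UMIs and were not matched to the counts of the 9 genes. Of 12 adipocyte markers, 4 were higher in both libraries and 2 lower in both. The 2 kinds of nuclei held unequal shares of the classes: adipocyte-like nuclei were 17.5% of those with Ucp1 and 13.7% of those without it in PTRF knockout 1, and 52.6% and 15.5% in WT 2. Within adipocyte-like nuclei alone 7 of 9 genes were higher in both libraries, where 0.702% of 14246 genes were, and within cluster 0 alone 6 of 9, where 0.490% of 26512 genes were. The 6 genes higher in both classes and both libraries were Ppargc1a, Ppargc1b, Esrrg, Dio2, Cidea and Cox8b. Prdm16 was not among them in either class, and Cox7a1 was in adipocyte-like nuclei only. Each library is 1 sample, so no test was made, and nuclei of a library are not replicates.

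General fat-cell genes moved with the split as well. Of 12 adipocyte markers, Lpl, Acaca and Acsl1 were higher with Ucp1 in both classes of both libraries, and Cidec and Ghr were lower in adipocyte-like nuclei of both. Lpl, the lipoprotein lipase, had 4614 CPM with Ucp1 and 2313 CPM without it in adipocyte-like nuclei of PTRF knockout 1, and 2473 and 1576 CPM in those of WT 2. In adipocyte-like nuclei the 12 markers summed to 21125 CPM with Ucp1, where Plin4 and Pnpla2 were at 0, and 24807 CPM without it in PTRF knockout 1, and to 15851 and 19203 CPM in WT 2. In cluster 0 they summed to 13795 CPM with Ucp1 and 8575 CPM without it in PTRF knockout 1, and to 7803, with Pnpla2 at 0, and 3749 CPM in WT 2. The part of these genes in the result was not tested.

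Ppargc1a had 3195 CPM in nuclei with Ucp1 and 112 CPM in nuclei without it in PTRF knockout 1, a ratio of 28.4. In WT 2 the values were 696 and 93.4 CPM, a ratio of 7.45. Ppargc1b had 862 CPM with Ucp1 and 193 CPM without it in PTRF knockout 1, and 1419 and 114 CPM in WT 2. In nuclei with Ucp1 of the 2 classes together, Ppargc1a was higher in PTRF knockout 1 (95% interval 2782 to 3652 CPM) than in WT 2 (518 to 915 CPM). It was higher within each class too. Over the 2 classes together, Ppargc1b was lower in PTRF knockout 1 (654 to 1114 CPM) than in WT 2 (1159 to 1719 CPM). Within adipocyte-like nuclei its intervals overlapped (825 to 2139 and 1627 to 2487 CPM). In cluster 0 Ppargc1b was instead higher in PTRF knockout 1 (730 CPM) than in WT 2 (486 CPM), with overlapping intervals. With 1 mouse or pool on each side, these intervals compare the 2 libraries and not the genotypes.

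Dio2 had 401 CPM with Ucp1 and 16.5 CPM without it in PTRF knockout 1, and 464 and 16.6 CPM in WT 2. Cidea had 416 CPM with Ucp1 and 28.1 CPM without it in PTRF knockout 1, and 818 and 53.2 CPM in WT 2. Cox8b had 446 CPM with Ucp1 and 5.06 CPM without it in PTRF knockout 1, and 259 and 18.0 CPM in WT 2. The 3 genes differed by 14.4 to 88.2 times between nuclei with and without Ucp1 over the 2 libraries. The regulators Prdm16 and Esrrg differed less: Prdm16 had 401 CPM with Ucp1 and 180.1 CPM without it in PTRF knockout 1, and 382 and 159 CPM in WT 2. Esrrg had 594 CPM with Ucp1 and 158 CPM without it in PTRF knockout 1, and 968 and 163 CPM in WT 2. Cox7a1 was apart in PTRF knockout 1 (238 CPM with Ucp1, 4.72 CPM without) and not in WT 2 (40.9 and 8.14 CPM), and Elovl3 was apart in WT 2 (54.6 and 2.33 CPM, from 4 and 8 UMIs) and not in PTRF knockout 1.

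Depth differed between the 2 kinds of nuclei, with medians of 1112 UMIs with Ucp1 and 806 without it in PTRF knockout 1, and 1614.5 and 814 in WT 2. With nuclei matched on total UMIs, the same number of genes, 8 of 9, was apart in each library. Among adipocyte-like nuclei alone, 7 of 9 genes were apart in PTRF knockout 1 and 9 of 9 in WT 2, and among those of cluster 0, 8 and 6. PTRF knockout 2 and WT 1 had 5 and 4 adipocyte-like nuclei with Ucp1, and 3 and 0 genes were apart there. The 3 genes, Ppargc1a, Esrrg and Dio2, had their UMIs in 2, 1 and 1 of the 5 nuclei, and the intervals do not allow for such clumping. In cluster 0 these libraries had 2 and 2 nuclei with Ucp1, and 1 and 0 genes were apart.

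**Figure D3:**
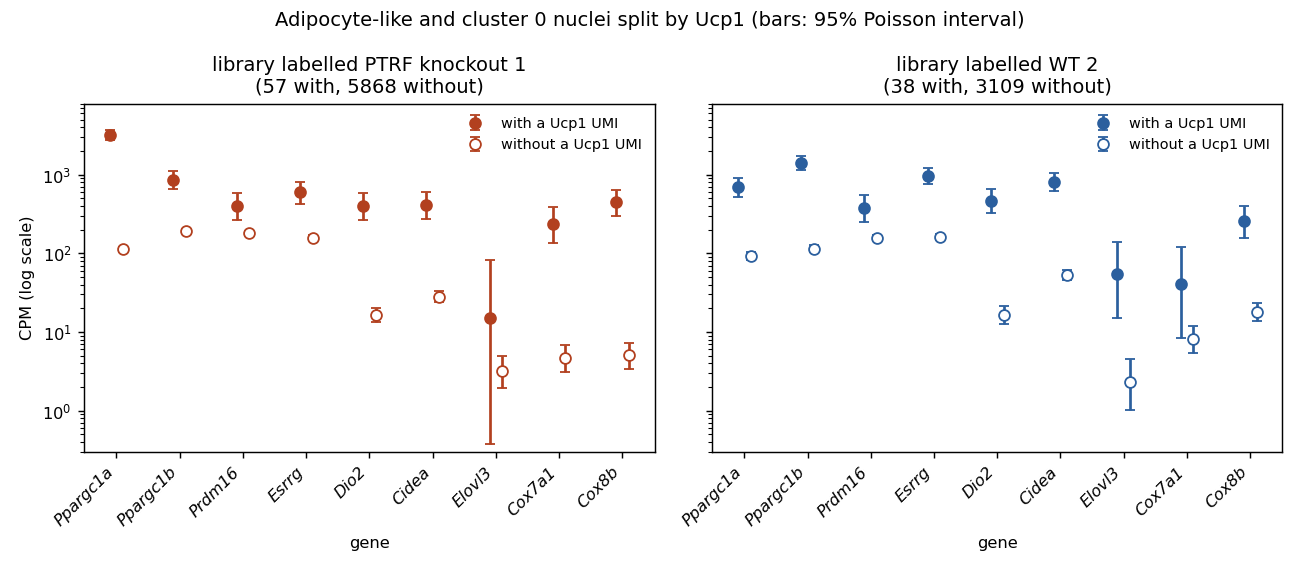
CPM of 9 thermogenic genes on a log axis in adipocyte-like and cluster 0 nuclei with a Ucp1 UMI (filled) and without one (open), in the libraries labelled PTRF knockout 1 (left) and WT 2 (right). Bars are 95% Poisson intervals. Filled points lie above open ones for each gene, and the intervals are apart for 8 of 9 genes in each library.

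Other genes of the pathway were read from 5 lists, over adipocyte-like nuclei and cluster 0 together. Of 16 transcriptional activators of the programme, 5 were higher in nuclei with Ucp1 in both libraries and none lower. They were Ebf2, Ppara, Pparg, Cebpb and Thrb, named after their values were seen, and of these Ppara alone was higher in both libraries within each class. Within adipocyte-like nuclei of WT 2, Pparg had 3552 CPM with Ucp1 and 3151 CPM without it, and the intervals overlapped. Ppara, a nuclear receptor of fatty acid oxidation genes, had 2601 CPM with Ucp1 and 191 CPM without it in PTRF knockout 1, and 4419 and 238 CPM in WT 2. Of 6 repressors, 0 were apart in both libraries, and within adipocyte-like nuclei Nrip1 and Zfp423 were lower in both. Of 15 markers of brown or beige fat, 4 were higher (Kcnk3, Slc36a2, Ebf3 and Nrg4), of which Kcnk3 was within each class. Of 13 genes of heat production without Ucp1, 2 were higher: Gk, the glycerol kinase, and Atp2a2, a calcium pump of the endoplasmic reticulum, and of these Gk was higher within each class. Gk had 1174 CPM with Ucp1 and 49.5 CPM without it in PTRF knockout 1, and 1282 and 64.6 CPM in WT 2. Of 18 close relatives of the thermogenic genes, Elovl6, Cox8a and Cox7a2 were higher, Elovl6 within each class too, and Cidec, a Cidea relative that enlarges lipid droplets, was lower in both libraries, at 490.4 CPM with Ucp1 and 990.1 CPM without it in PTRF knockout 1, and 505 and 1057 CPM in WT 2.

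Between the labelled genotypes, the comparison asked whether loss of PTRF changed the thermogenic genes. Counts were summed per library and fitted over all genes with edgeR's quasi-likelihood test with Benjamini-Hochberg adjustment, and a gene is said to be called at an adjusted p under 0.05.

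In adipocyte-like nuclei 0 of the 9 genes tested by edgeR were called, where 0.510% of 15102 genes were. At an unadjusted p under 0.05 there were 2, Cidea and Esrrg, where 5.55% of all genes were, and DESeq2 called 1, Cidea, where it called 0.636% of all genes. Of the 9, 8 had a log2 difference (PTRF knockout minus WT) below 0, with a median of -0.33, against a median of 0.01 over all genes tested. Elovl3 had 3 and 2 UMIs in the libraries labelled PTRF knockout, against 6 and 7 in those labelled WT, and was too low to be tested.

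Cidea had the lowest p. It had 23.6 and 8.73 normalised CPM in the libraries labelled PTRF knockout 1 and 2, against 39.2 and 123 CPM in those labelled WT 1 and 2, from 36, 75, 213 and 135 UMIs. Both libraries labelled PTRF knockout lay below both labelled WT, as they did for 14.3% of all genes tested. Cidea averaged 16.2 ± 10.5 CPM in the libraries labelled PTRF knockout and 81.2 ± 59.3 CPM in those labelled WT (SD, n = 2 each). Its log2 difference was -2.42 with a standard error of 0.66, and its adjusted p was 0.317 with edgeR and 0.0087 with DESeq2. With edgeR it was called without PTRF knockout 1 (adjusted p = 7.0e-08), without PTRF knockout 2 (0.0145) and without WT 1 (8.8e-07), and not without WT 2 (0.795), where the log2 difference was -1.41. The replicate number as a block gave an adjusted p of 6.1e-04 with edgeR. Same-numbered libraries deviated in opposite directions over the genes tested (Pearson r = -0.26), so what the block stands for is not known. Without the nuclei that held a Ucp1 UMI, the log2 difference of Cidea was -2.28 and its adjusted p 0.0137. In these nuclei Cidea had 19.3 and 8.23 CPM in the libraries labelled PTRF knockout, against 38.3 and 86.1 CPM in those labelled WT.

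Esrrg had 72.9 and 37.1 CPM in the libraries labelled PTRF knockout, against 74.1 and 139 CPM in those labelled WT. The groups were separated by little, since PTRF knockout 1 and WT 1 were nearly equal. The log2 difference was -0.96 with a standard error of 0.37 and an adjusted p of 0.526 by edgeR. Ppargc1b was the only one of the 9 with a difference above 0. It had 309 and 271 CPM in the libraries labelled PTRF knockout, against 160 and 239 CPM in those labelled WT, with a log2 difference of 0.55 and a standard error of 0.34. These groups did not overlap either, as for 15.9% of all genes tested that were higher in the libraries labelled PTRF knockout. Prdm16 had 207 and 135 CPM in the libraries labelled PTRF knockout, against 208 and 220 CPM in those labelled WT. The closest values, of PTRF knockout 1 and WT 1, differed by less than their counting error.

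Ppargc1a had 181 and 118 CPM in the libraries labelled PTRF knockout, against 162 and 161 CPM in those labelled WT, so the WT values lay between the other 2. Dio2 had 21.7 and 15.7 CPM in the libraries labelled PTRF knockout, against 4.42 and 42.9 CPM in those labelled WT. Cox8b had 13.8 and 4.31 CPM in the libraries labelled PTRF knockout, against 9.40 and 34.7 CPM in those labelled WT. Both genes overlapped between the labels. Cox7a1 had 10.5 and 0.116 CPM in the libraries labelled PTRF knockout, against 2.58 and 9.12 CPM in those labelled WT, and the value of PTRF knockout 2 rests on 1 UMI. PTRF knockout 2 had the lowest value for 7 of the 9 genes (Ucp1, Cidea, Cox7a1, Cox8b, Esrrg, Prdm16 and Ppargc1a), and WT 2 the highest for 6 (Ucp1, Dio2, Cidea, Cox8b, Esrrg and Prdm16). Without PTRF knockout 1, when its label is left with PTRF knockout 2 alone and the lone library is assumed to vary like the others, 5 genes were called (Cidea, Cox7a1, Cox8b, Esrrg and Ucp1), where 1.45% of 18254 genes were. Without WT 1 the 2 called were Cidea and Ucp1, where 0.473% of 12888 genes were, and without WT 2 none was. The summed level of 12 adipocyte markers in these nuclei was 24772 and 45816 CPM in the libraries labelled PTRF knockout, against 26924 and 19069 CPM in those labelled WT, and was highest in PTRF knockout 2 and lowest in WT 2. Median depth was 1609 and 4547 UMIs in the libraries labelled PTRF knockout, against 1924 and 1919 UMIs in those labelled WT. The part of these in the result was not tested.

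**Figure D4:**
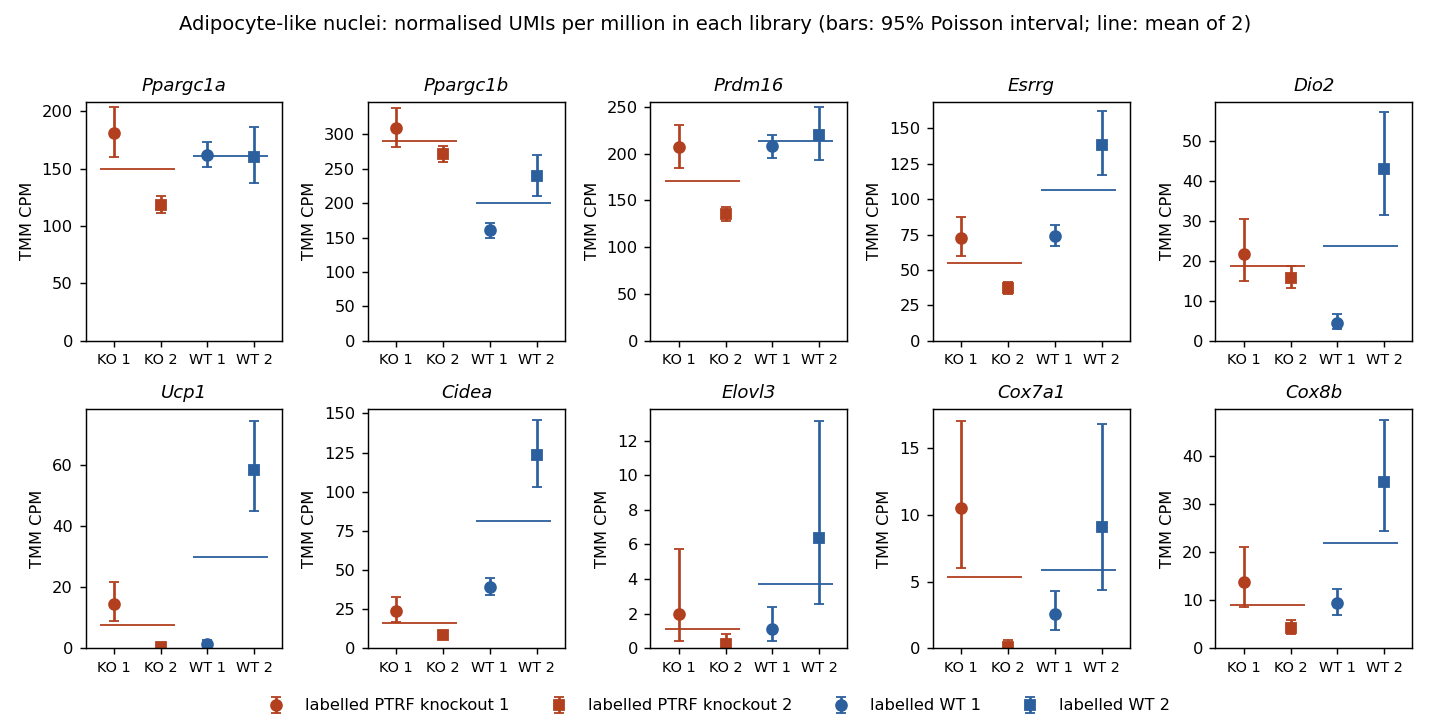
TMM-normalised CPM of each thermogenic gene in adipocyte-like nuclei, 1 point per library, with the libraries labelled PTRF knockout left of those labelled WT. Bars are 95% Poisson intervals and lines are means of 2 libraries. WT 2 is the highest library for Ucp1 at 58.4 CPM and for Cidea at 123 CPM.

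Over all nuclei 0 of the 10 genes were called by edgeR, where 0.103% of 28075 genes were, 0 had an unadjusted p under 0.05, and DESeq2 called 0. In such sums, fewer cells of a type and less RNA per cell cannot be told apart. Of the 10, 7 had a log2 difference below 0, with a median of -0.13 against 0.02 over all genes. Ppargc1b had 107 and 129 CPM in the libraries labelled PTRF knockout, against 88.7 and 78.3 CPM in those labelled WT, without overlap, as for 7.27% of all genes. Cidea had 18.2 and 10.9 CPM in the libraries labelled PTRF knockout, against 20.9 and 29.4 CPM in those labelled WT, also without overlap, as for 7.60% of all genes in that direction. The share of adipocyte-like nuclei was 6.77% and 11.3% in the libraries labelled PTRF knockout, against 15.6% and 7.52% in those labelled WT. These shares depend on the clustering. At Leiden resolution 2, a shallower cluster of 4065 nuclei was among those named adipocyte-like. It held 1554 and 1136 nuclei in the libraries labelled PTRF knockout, against 821 and 554 in those labelled WT.

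In progenitor-like nuclei, fibroblasts that can give rise to fat cells, 0 of the 5 genes tested by edgeR were called, where 0.0479% of 12529 genes were, 0 had an unadjusted p under 0.05, and DESeq2 called 0. The 5 were Ppargc1a, Ppargc1b, Prdm16, Esrrg and Cidea, with log2 differences between -0.33 and 0.65. Ppargc1a had the largest, 0.65 with a standard error of 0.51, from 41.5 and 19.2 CPM in the libraries labelled PTRF knockout, against 20.8 and 14.7 CPM in those labelled WT. All 5 genes overlapped between the labels, where 14.5% of all genes were higher and 14.6% lower without overlap. The other 5 genes had at most 15 UMIs in any library. A test of whether the difference between labels was itself different in adipocyte-like and progenitor-like nuclei called 0 of 9 genes with edgeR. Of all 14524 genes, 0.227% were called. At an unadjusted p under 0.05 there were 3 of the 9 (Cidea, Esrrg and Cox8b), where 6.22% of all genes were. Ucp1, Dio2, Cox8b and Cox7a1 had only 8, 22, 12 and 13 UMIs in all progenitor-like nuclei and could not be tested there alone. Their values in this test rest mostly on adipocyte-like counts, so the 3 include a gene near 0 in progenitor-like nuclei. In cluster 0, where 0.172% of 20975 genes were called by edgeR, 0 of 9 were, with 1 at an unadjusted p under 0.05, where 4.43% of all genes were, and DESeq2 called 0. That gene was Ppargc1b, at 169 and 110 CPM in the libraries labelled PTRF knockout, against 101 and 95.2 CPM in those labelled WT. In the 8 further classes edgeR called 0 of the 2 to 5 genes that could be tested, 0 had an unadjusted p under 0.05 and DESeq2 called 0. Over all genes the share called was 2.01% in vascular endothelial-like, 0.0543% in dendritic cell-like, 0.0440% in B cell-like, 0.0388% in T or NK cell-like, 0.0373% in myoepithelial-like and 0.0113% in macrophage-like nuclei, 0.0228% in luminal-like cluster 4 and 0% in luminal-like cluster 9.

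**Figure D5:**
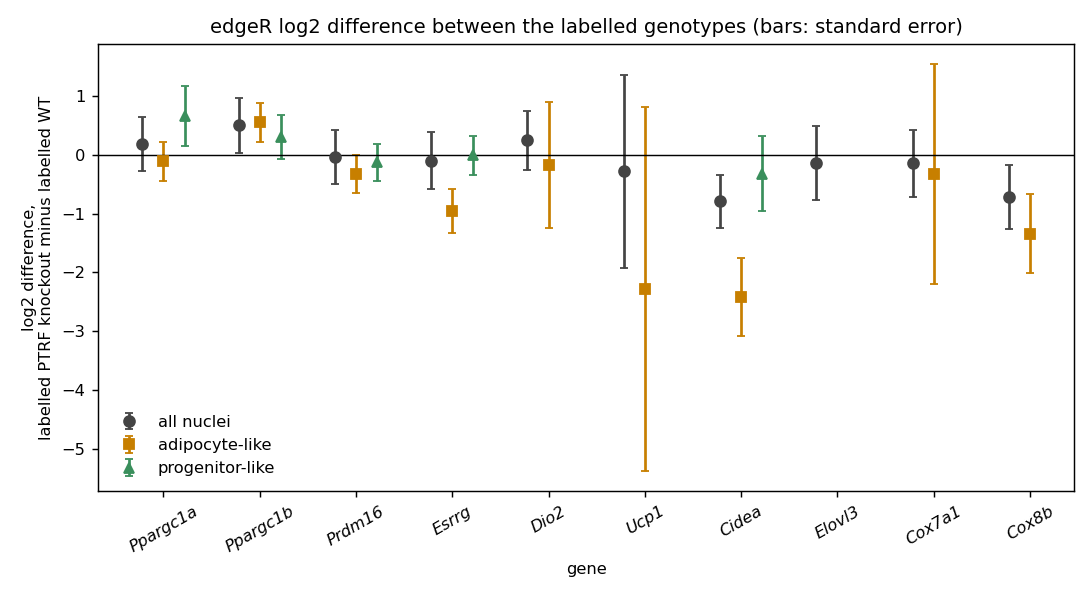
Log2 difference (libraries labelled PTRF knockout minus those labelled WT) of each thermogenic gene in all nuclei, adipocyte-like and progenitor-like nuclei, with bars of 1 standard error from edgeR. No gene is called, and the bar of Ucp1 in adipocyte-like nuclei spans 0, with a standard error of 3.08.

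The pathway lists gave 1 called gene in these 3 comparisons. Of 16 activators, Irf4, a transcription factor that works with Ppargc1a in brown fat and is also an immune gene, was called lower over all nuclei and in progenitor-like nuclei, and 0 of the 16 were called higher. Over all nuclei Irf4 had 18.7 and 26.1 CPM in the libraries labelled PTRF knockout, against 264 and 43.0 CPM in those labelled WT, with a log2 difference of -2.78 and an adjusted p of 6.8e-05 by edgeR. That call was lost with DESeq2, with the replicate block, without cluster 0, at a higher depth limit and without PTRF knockout 1, PTRF knockout 2 or WT 1. In progenitor-like nuclei Irf4 had 9.68 and 17.0 CPM in the libraries labelled PTRF knockout, against 101 and 95.5 CPM in those labelled WT, with a log2 difference of -2.75 and an adjusted p of 0.0342. This call was lost with the replicate block (0.0561) and with the 10 genes kept in the clustering (0.0523). In adipocyte-like nuclei Irf4 had 40.0 and 33.4 CPM in the libraries labelled PTRF knockout, against 777 and 173 CPM in those labelled WT, with an adjusted p of 0.113 by edgeR and 0.0234 by DESeq2.

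No other gene of the lists was called by edgeR in the 3 comparisons. In adipocyte-like nuclei 16 activators were tested with a median log2 difference of -0.12, and 5 of 6 repressors with a median of 0.20. Pparg, the master regulator of fat cells, had 1873 and 4775 CPM in the libraries labelled PTRF knockout, against 3587 and 3218 CPM in those labelled WT. Nrip1, a corepressor of oxidative genes, had 1539 and 1668 CPM in the libraries labelled PTRF knockout, against 968 and 1251 CPM in those labelled WT. Of the 15 markers of brown or beige fat, 10 could be tested and 9 of them had a difference below 0, with a median of -0.47. Nrg4, a secreted growth factor of brown fat, had 1513 and 2054 CPM in the libraries labelled PTRF knockout, against 2565 and 1198 CPM in those labelled WT. Of 13 genes of heat production without Ucp1, 6 were tested with a median of -0.73. Gk had 57.8 and 31.3 CPM in the libraries labelled PTRF knockout, against 19.3 and 164 CPM in those labelled WT, high in the same 2 libraries as Ucp1. Of the relatives, 13 were tested with a median of -0.18, and Elovl6, which lengthens saturated fatty acids, had 161 and 117 CPM in the libraries labelled PTRF knockout, against 132 and 192 CPM in those labelled WT.

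Over 44 sums of 11 classes in 4 libraries, the genes whose log2(CPM + 1) was most like that of Ppargc1a were Adcy5, an adenylate cyclase (Pearson r = 0.85), Kcnk2 (0.83) and Mrap (0.83). Those most like Prdm16 were Ebf3 (0.91), Zfp423 (0.89) and Sgcd (0.87), and those most like Ppargc1b were Clybl (0.88), Mlxipl (0.86) and Gm12811 (0.85). For Esrrg they were Prlr (0.79), Rasef (0.79) and Ttc6 (0.77), of which Prlr and Ttc6 are among the leading genes of luminal-like cluster 9. Dio2 was most like Chchd6 (0.76), Ppargc1b (0.75) and Pex14 (0.73), and Cidea most like Syne3 (0.75), Scp2 (0.74) and Zyg11a (0.72). For Cox8b the first was Txlng (0.74). For Ucp1, Elovl3 and Cox7a1 the first were 4930471C04Rik (0.70), Vmn1r217 (0.74) and Rpl3l (0.79), all with averages under 5 CPM, where most sums hold few UMIs. The sums share libraries and depth, so these values are a description.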

How the data were processed

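Nuclei of inguinal white fat were captured with a Singleron GEXSCOPE kit and sequenced on a NovaSeq, per the labels' protocols, and the submitters' processing notes name GRCm38 (mm10) and Seurat 4.3.0. The sources used here give neither the aligner nor its settings. The authors deposited raw UMI counts per gene and barcode, with no barcode under 500 UMIs. Nuclei with at least 300 genes and at most 10% mitochondrial counts were kept. No doublet caller was run and doublets were not removed.

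Nuclei were clustered with scanpy 1.11.5 on 1999 variable genes, 30 components, 15 neighbours and Leiden resolution 1, after removal of the thermogenic genes, of which 1 was among the variable genes. A class was named when at least 3 of its markers were among the 100 leading genes. Counts were summed per library and class and tested with edgeR 4.0.16 (TMM, filterByExpr, robust quasi-likelihood test) under R 4.3.3, with p-values adjusted over all genes tested. A standard error is the log2 difference divided by the root of the F statistic. The labels name 2 samples per genotype, and p-values measure the spread between them. Total depth was 8855578 to 35134206 UMIs per library. Shares have Clopper-Pearson and sums Poisson intervals at 95%, and a count of 0 allows 3 counts. A gene was apart between nuclei with and without Ucp1 when the 2 Poisson intervals did not overlap, and for the share over all genes at least 10 UMIs were required. A planned fit of these nuclei was not made because fewer than 20 were found in some libraries. The test was also run on simulated counts with the same spread for every gene. That run does not show how it performs for genes that differ widely between libraries of a label.

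Alternatives were DESeq2 1.42.0, no expression filter, at least 1000 UMIs and 500 genes per nucleus, no mitochondrial filter, the 10 genes kept in the clustering, Leiden resolutions of 0.5 and 2, a gate of at least 3 markers for adipocyte-like and progenitor-like nuclei, each library left out, and the replicate number as a block. Named genes were the 10 members, the pathway genes that were called or, per list, up to 3 with the highest adipocyte-like level, and the 3 genes most alike in pattern to each member. Of 69 pathway symbols 68 are in the files. The members, lists and tests were chosen with earlier results of these data known.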

Additional observations from a re-analysis of the deposited data

How the results depend on the processing

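Over all nuclei 29 genes were called, and 3 were when nuclei needed 1000 UMIs and 500 genes, 4 with the replicate block, 14 with DESeq2 and 5 to 18 when 1 library was left out. In adipocyte-like nuclei 77 were called, and 32 were with the marker gate, 12 with cluster 0 added and 61 to 265 when 1 library was left out. In progenitor-like nuclei 6 were called, and 13 were at the higher depth limit, 32 with no expression filter, 2 with the replicate block, 23 with DESeq2, 2 with the 10 genes kept in the clustering and 10 to 72 when 1 library was left out. In luminal-like clusters 4 and 9 together 3 genes were called, and 20 were with DESeq2, 110 with no expression filter and 28 to 724 when 1 library was left out, the highest without WT 1. In cluster 0 36 were called, and 56 were with DESeq2, 125 with no expression filter and 59 to 129 when 1 library was left out. In the 6 remaining named classes 123 genes were called in all, and 63 were with DESeq2, 64 with no expression filter, 22 at Leiden resolution 2 and 105 to 245 when 1 library was left out. Same-numbered libraries deviated in opposite directions (r = -0.61 over all nuclei, -0.26 in adipocyte-like and -0.30 in progenitor-like nuclei). With 2 pairs, these values cannot decide whether the replicate numbers mark a shared step. With crossed numbers as a block, chosen after seeing the data, 39, 195 and 117 genes were called in the 3 comparisons.

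Of the thermogenic genes, 0 were called over all nuclei and in progenitor-like nuclei under each alternative run. In adipocyte-like nuclei 1 was called with no expression filter, with DESeq2, with no mitochondrial filter, with the replicate block, with the crossed block and without nuclei holding a Ucp1 UMI, and 0 to 5 when 1 library was left out. The gene was Cidea in each of these settings with 1 call. With cluster 0 added, with the marker gate, at the higher depth limit, with the 10 genes kept in the clustering and at Leiden resolutions of 0.5 and 2 none was. In the settings with 1 call, many other genes were called too. They numbered 94 of 35351 with no expression filter, 96 of 15102 with DESeq2 and 71 of 18078 with no mitochondrial filter. The replicate block gave 97 of 15102, the crossed block 195 of 15102, and the removal of nuclei holding a Ucp1 UMI 76 of 15045. These counts include Cidea. The test of the difference between adipocyte-like and progenitor-like nuclei called 0 to 1 genes when 1 library was left out, and the 1, without WT 1, was Cidea.

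These log2 differences changed sign, none of them called before or after the change except where stated in the report, and the cause was not tested. Leaving out 1 library gave, over all nuclei, -0.095 to 0.43 for Ppargc1a, -0.25 to 0.12 for Prdm16, -0.32 to 0.072 for Esrrg, -0.52 to 1.72 for Dio2, -2.65 to 2.47 for Ucp1, -0.48 to 0.16 for Elovl3 and -0.90 to 0.37 for Cox7a1. In adipocyte-like nuclei it gave -0.42 to 0.14 for Ppargc1a, -1.23 to 2.03 for Dio2, -5.36 to 2.21 for Ucp1 and -5.12 to 1.09 for Cox7a1, and in progenitor-like nuclei -0.31 to 0.056 for Prdm16, -0.15 to 0.14 for Esrrg and -0.60 to 0.059 for Cidea. The difference of Dio2 between the 2 classes ran from -2.96 to 0.17. Without cluster 0, over all nuclei, Ppargc1a was at -0.027 and Dio2 at -0.057. In adipocyte-like nuclei Dio2 was at 0.011 with the 10 genes kept in the clustering, 0.29 with the replicate block, 0.0013 at Leiden resolution 0.5, 0.38 with cluster 0 added and 0.47 without nuclei holding a Ucp1 UMI, and Cox7a1 was at 0.16 at the higher depth limit. In progenitor-like nuclei Prdm16 was at 0.054 with the marker gate, and Esrrg at 0.16 at the higher depth limit, 0.027 with the 10 genes kept in the clustering and 0.021 at Leiden resolution 2. The difference of Esrrg between the 2 classes was at 0.034 with the marker gate. In the counts of genes apart in adipocyte-like nuclei with a Ucp1 UMI, a minimum of 2 UMIs gave 7 in PTRF knockout 1 and 7 in WT 2, matching on total UMIs 6 and 7, and the marker gate 8 and 8. The planned settings that need a fit of these nuclei were not run. The counts for luminal-like clusters and cluster 0, the removal of cluster 0, its addition, the nuclei left out for Ucp1 and the crossed block were chosen after seeing the data. Depth limits Ucp1, Elovl3, Cox7a1 and Cox8b, whose UMIs over all nuclei numbered 269, 131, 229 and 305.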

Other observations

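Cidec, the lipid droplet gene related to Cidea, was called in vascular endothelial-like nuclei, where 2.01% of 5120 genes were called by edgeR. It had 226 and 340 normalised CPM in the libraries labelled PTRF knockout 1 and 2, against 81.4 and 73.9 CPM in those labelled WT 1 and 2, with a log2 difference of 1.88, a standard error of 0.42 and an adjusted p of 0.0054. The call was lost with DESeq2 (0.0698), with no expression filter (0.108), at Leiden resolution 2 (0.213) and without PTRF knockout 2 (0.208), WT 1 (0.154) or WT 2 (0.169). Cidec is abundant in adipocyte-like nuclei, at 2057 and 3361 CPM in the libraries labelled PTRF knockout, against 1477 and 2555 CPM in those labelled WT. The summed level of 12 adipocyte markers in vascular endothelial-like nuclei, none of them at 0, was 4240 and 6612 CPM in the libraries labelled PTRF knockout, against 2938 and 2321 CPM in those labelled WT, and its part in the result was not tested.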
